A study of Mus musculus with 12 samples.

Results

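Killer lectin-like receptors are C-type lectin-like membrane proteins that natural killer (NK) cells and subsets of CD8+ T cells carry on their surface. The group described here consists of the 7 genes Klrg1, Klrc1, Klre1, Klrd1, Klrk1, Klrc2 and Klrb1c, chosen by name, out of 55536 annotated genes in the count table. Their RNA was measured by sequencing of poly(A) RNA in OT-1 Tg C57BL/6J CD8+ T cells, which carry a transgenic T cell receptor for an ovalbumin peptide. The 12 libraries came from 2 samples of naive, non-transferred OT-I cells (Naive), 5 samples of OT-I cells transferred into C57BL6/J mice that then received antigen alone (Ag), and 5 samples of transferred cells whose hosts received antigen together with the agonist antibodies anti-OX40 and anti-41BB (Ag+Costim). OX40 (CD134) and 41BB (CD137) are costimulatory receptors of the TNF receptor family, and per the labels transferred cells were sorted from spleen and lymph nodes 4 days later, while the study's methods give a time some hours shorter. The gate described there took CD8+ cells with the donor CD45.1 allele and the Vα2 and Vβ5 chains of the OT-I receptor, which would leave out NK, B and myeloid cells of the host. All 3 groups therefore share the transgene and the strain, whereas only Ag and Ag+Costim cells had been transferred, so transfer and antigen cannot be told apart against Naive. The study's methods describe replicates as individual biological ones and OT-I mice as Rag1- or Rag2-deficient, and give ages only as ranges over both sexes. The hosts were wild-type mice with lymphocytes of their own.

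The receptors include inhibitory and activating members. Klrc1 (NKG2A) and Klrc2 (NKG2C) each pair with Klrd1 (CD94) and bind the same ligand, the nonclassical class I molecule Qa-1, the former as an inhibitory and the latter as an activating receptor. Klrg1 is an inhibitory receptor for cadherins and a customary marker of short-lived effector CD8+ T cells. Klre1 forms inhibitory or activating complexes depending on whether Klri1 or Klri2 is its partner. Klrk1 (NKG2D) is an activating receptor for stress-induced ligands and signals through the adaptors DAP10 (Hcst) and DAP12 (Tyrobp). Klrb1c (NK1.1) is an activating receptor used to define NK cells in C57BL/6 mice.

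All 7 genes lie on mouse chromosome 6 (mm10, GENCODE vM21). Klre1, Klrd1, Klrk1, Klrc2 and Klrc1 stand next to each other within 101.1 kb, at chr6:129577905-129678973. Klrb1c lies outside that stretch at chr6:128778485-128789215, and Klrg1 at chr6:122270596-122282882. Klrd1 and Klre1 are on the plus strand and the other 5 genes on the minus strand. Klrb1c overlaps the annotated gene Gm44511 on the same strand.

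The codons of an immunoreceptor tyrosine-based inhibitory motif are shown because the motif separates the roles of these receptors in textbooks. The pattern searched was isoleucine, leucine, valine or serine, any residue, tyrosine, any 2 residues, then isoleucine, leucine or valine, in the translated coding part of the transcript with most counts of each gene. The first match in Klrg1 (188 codons), Klrc1 (244 codons), Klrc2 (206 codons) and Klrb1c (268 codons) is printed 5′ to 3′ on the coding strand with the 6 matching codons in capitals.
Klrg1, residues 5 to 10, chr6:122282776-122282805: gacagcTCTATCTATTCAACACTAgagctg
Klrc1, residues 6 to 11, chr6:129678872-129678901: gaacgcGTCACCTATGCAGAACTGaaggtg
Klrc2, residues 89 to 94, across an exon junction between positions 129659363 and 129659990: attgttTCTCCATATGCTGAACTGaagaag
Klrb1c, residues 53 to 58, chr6:128788446-128788475: acagcaAGTATCTACCTCGGTTTAaagcca
Klrg1 had a further match at residues 54 to 59 and Klrk1 had 1 at residues 183 to 188, while the pattern was not found in Klrd1 or Klre1. Klrc2 and Klrb1c are known as activating receptors, so a match of letters is a description and not a working motif. The Klrc1 and Klrc2 translations were identical at 59.4% of 202 aligned residues, and the other 20 pairs at 22.2% to 39.4%. The Klrc2 translation was that of Klrc2-205, whose coding part ends in another exon than that of Klrc2-202 (238 codons). The 59.4% therefore holds for this transcript only.

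Promoter windows are shown for the members that stood farthest apart in the results. RefSeq windows (GRCm38.p6, the assembly of mm10) were at hand for 5 members, Klrk1, Klrc1, Klrc2, Klre1 and Klrb1c, in 7 windows. In the 250 bases before the start site, 4 motifs were searched on both strands. They were TGTGGT (Runx site), GGTGTG (T-box site, which can overlap the former), TGANTCA (AP-1 site) and TTCNNNGAA (STAT site). The Runx letters were present in 6 of the 7 windows, against 14.0% of 32851 windows genome-wide, and in at least 1 window of each of the 5 genes. The 7 windows are not separate, since the pair of Klrc2 windows overlap and hold the same matches and the pair of Klre1 windows overlap too. The T-box, AP-1 and STAT letters were in none of the 7 windows, against 16.3%, 6.7% and 7.0% of all windows. A match describes the letters and is no evidence of binding. Windows of Klrc1 and Klrk1, which were higher in stimulated cells, and of Klrb1c, which was lower in Ag+Costim, are given 5′ to 3′ on the gene's strand with the Runx letters or their reverse complement in capitals.
Klrc1, chr6:129678974-129679223, minus strand: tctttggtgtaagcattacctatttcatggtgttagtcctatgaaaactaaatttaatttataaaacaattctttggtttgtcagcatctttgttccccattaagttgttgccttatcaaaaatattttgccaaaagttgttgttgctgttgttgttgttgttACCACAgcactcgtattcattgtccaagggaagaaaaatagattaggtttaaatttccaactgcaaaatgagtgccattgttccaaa
Klrk1, chr6:129623865-129624114, minus strand: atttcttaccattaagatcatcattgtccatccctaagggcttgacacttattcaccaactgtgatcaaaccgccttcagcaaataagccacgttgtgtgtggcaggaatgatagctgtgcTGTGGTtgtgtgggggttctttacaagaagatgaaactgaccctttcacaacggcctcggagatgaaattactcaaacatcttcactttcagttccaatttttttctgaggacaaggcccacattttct
Klrb1c, chr6:128788642-128788891, minus strand: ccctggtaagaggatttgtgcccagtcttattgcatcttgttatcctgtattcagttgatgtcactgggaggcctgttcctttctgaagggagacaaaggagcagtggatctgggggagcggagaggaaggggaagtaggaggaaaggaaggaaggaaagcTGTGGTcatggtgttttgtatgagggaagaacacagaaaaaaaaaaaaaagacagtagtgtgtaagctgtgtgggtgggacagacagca
The match lay 87 to 82 bases before the start in Klrc1, 129 to 124 in Klrk1 and 89 to 84 in Klrb1c. The windows of Klrc2 and Klre1 run over annotated exons outside the coding part, so only 1 match of each with 12 bases on each side is printed.
Klrc2, chr6:129660615-129660644, minus strand: ttcaatagaatcACCACAgcatagaacaca
Klre1, chr6:129577972-129578001, plus strand: ttgtgtttaagcTGTGGTtccagagagtca

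Counts per library on annotated genes were 42297544 to 43448688 in Naive, 23976932 to 45951519 in Ag and 39994606 to 49258758 in Ag+Costim, the lowest being Ag 4. Levels are given as CPM, the count scaled by the TMM-adjusted library size. A count of 0 allows up to 3 counts, which is at most 0.125 CPM (of the unadjusted library size) in Ag 4, the shallowest library. All 6 T cell markers (Cd3d, Cd3e, Cd3g, Cd8a, Cd8b1, Trac) were present, with a summed level of 9010 to 9660 CPM in Naive, 7120 to 10800 CPM in Ag and 3980 to 5460 CPM in Ag+Costim. The 6 NK cell markers (Ncr1, Itga2, Cd244a, Klra4, Klra8, Klra9) summed to 14.1 to 18.1 CPM in Naive, 10.8 to 26.0 CPM in Ag and 11.7 to 17.2 CPM in Ag+Costim. Ag 4 held the highest of these NK sums, and none of the 6 NK markers was at 0 throughout a group. B cell markers (5 genes) summed to 27.2 to 29.7, 108 to 155 and 22.5 to 57.7 CPM in Naive, Ag and Ag+Costim. Myeloid markers (6 genes) summed to 24 to 50.2, 60.9 to 166 and 86.4 to 152 CPM, erythroid markers (6 genes) to 150 to 2070, 626 to 6380 and 14.5 to 223 CPM, and Cd4 stayed at or below 2.44 CPM. The highest myeloid and erythroid sums (166 and 6380 CPM) were also those of Ag 4, while the highest B cell sum was that of Ag 2. Pax5 was at 0 in both Naive libraries. The part of other cells in the results below was not tested, and in sorted bulk samples fewer cells of a type and less RNA per cell cannot be told apart.

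The question of what antigen alone and antigen with costimulation each did to these genes was addressed with edgeR's quasi-likelihood test on counts, with Benjamini-Hochberg adjustment over 18817 genes and a call at an adjusted p below 0.05. All 7 genes passed the filter on low counts. In Ag against Naive, 3 of 7 genes were called higher (Klrk1, Klrc1, Klrc2), where 24.2% of all genes tested were, and 0 were called lower, where 22.5% were. Only Klrk1, Klrc1 and Klrc2 had an unadjusted p under 0.05 in that comparison, so the count of lower calls was also 0 without adjustment, and it was 0 with DESeq2. In Ag+Costim against Ag, 4 of 7 were called higher (Klrg1, Klrc1, Klrc2, Klre1), against a background of 26.6%, and 1 was called lower (Klrb1c), against 26.5%. In Ag+Costim against Naive, 4 were called higher (Klrg1, Klrk1, Klrc1, Klrc2; background 26.9%) and 1 lower (Klrb1c; background 25.4%). The median log2 fold change of the 7 genes was -0.17, 0.96 and 1.60 in the 3 comparisons, beside 0.02, -0.05 and -0.02 over all genes tested. These comparisons share samples, so their values are set side by side and not counted as separate evidence.

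**Figure D1:**
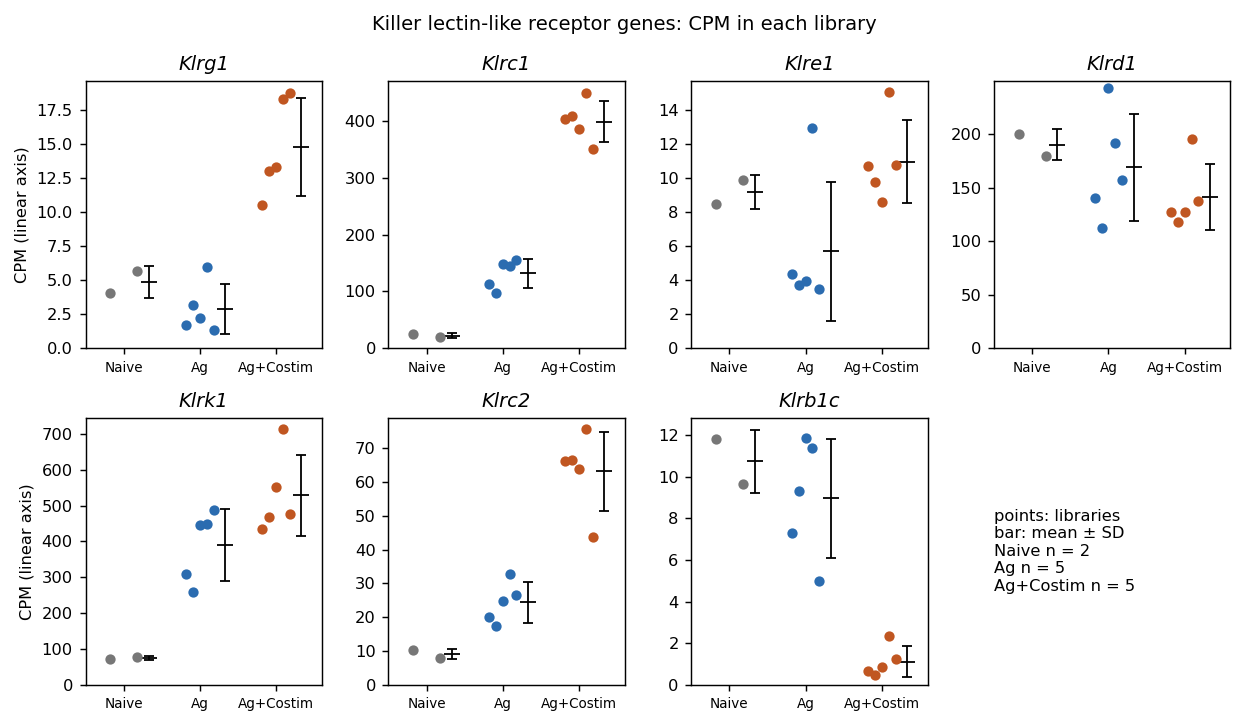
CPM (linear axis from 0, one panel per gene) of the 7 receptor genes in each Naive, Ag and Ag+Costim library, with the mean ± SD at the right of each group. Klrc1 and Klrc2 sit on 3 separate levels, Klrk1 on a low Naive level of 71.9 to 78.1 CPM, Klrb1c falls to 0.466 to 2.33 CPM in Ag+Costim, and in Klre1 the single high Ag point is Ag 4.

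Among the inhibitory receptors, Klrc1, the NKG2A gene, rose at each step. It measured 25 and 19.1 CPM in the Naive libraries. The Ag libraries held 113, 97.3, 149, 144 and 156 CPM. The Ag+Costim libraries held 404, 409, 386, 450 and 351 CPM. No library of one group overlapped another group. The log2 fold change was 2.58 ± 0.21 (SE) in Ag against Naive (edgeR adjusted p = 6.46e-07), or 5.97-fold. It was 1.60 ± 0.14 in Ag+Costim against Ag (edgeR adjusted p = 4.91e-07), or 3.04-fold. Against Naive, Ag+Costim cells had 18.1-fold more Klrc1 RNA, the highest fold of the 7 genes.

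Klrg1, the effector marker, did not follow Klrc1. Its level was 4.05 and 5.71 CPM in Naive. It was 1.73, 3.20, 2.24, 5.93 and 1.32 CPM in Ag. It was 10.5, 13.1, 13.4, 18.4 and 18.8 CPM in Ag+Costim. Each Ag+Costim library was above each library of the other groups, whereas Ag and Naive overlapped through Ag 4. The Ag+Costim against Ag change was 2.38 ± 0.35 (edgeR adjusted p = 7.18e-05), or 5.20-fold, and that against Naive was 1.60 ± 0.48 (edgeR adjusted p = 0.0132). Without Naive 1, the change against Naive was 1.37 (edgeR adjusted p = 0.119). In Ag against Naive the log2 fold change of -0.78 ± 0.44 did not pass (edgeR adjusted p = 0.162). Without Ag 4 it was -1.20 (edgeR adjusted p = 0.00813).

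Klre1 was called higher in Ag+Costim than in Ag, but its groups overlapped. Its level was 8.46 and 9.89 CPM in Naive, and 4.34, 3.72, 3.91, 12.9 and 3.49 CPM in Ag. It was 10.7, 9.78, 8.55, 15.0 and 10.8 CPM in Ag+Costim. Ag 4 lay among the Ag+Costim values, and the 4 remaining Ag libraries lay below all libraries of both other groups. The log2 fold change was 0.96 ± 0.34 in Ag+Costim against Ag (edgeR adjusted p = 0.0280). That call was lost when Ag 1, Ag 2, Ag 3, Ag 5 or Ag+Costim 4 was left out (log2 fold change 0.83 to 0.88, edgeR adjusted p 0.058 to 0.069) and with upper-quartile scaling (0.75, edgeR adjusted p = 0.0828). Without Ag 4 the value was 1.5 (edgeR adjusted p = 1.19e-05). In Ag against Naive it was -0.70 ± 0.43 (edgeR adjusted p = 0.196), and without Ag 4 it was -1.25 (edgeR adjusted p = 0.0003). Of its partners, Klri2 averaged 1.92, 1.47 and 1.74 CPM in Naive, Ag and Ag+Costim. Klri1 was at 0 in both Naive libraries and at most 0.303 CPM elsewhere. Neither partner was called in Ag against Naive or Ag+Costim against Ag.

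Klrd1, the CD94 partner that Klrc1 and Klrc2 need at the surface, passed in none of the 3 comparisons. Its level was 200.5 and 180 CPM in Naive. The Ag libraries had 140, 113, 243, 192 and 157 CPM, and the Ag+Costim libraries 128, 118, 128, 196 and 137 CPM. The groups overlapped in all 3 comparisons. The log2 fold change was -0.17 in Ag against Naive (95% interval -0.66 to 0.32, edgeR adjusted p = 0.604) and -0.26 in Ag+Costim against Ag (95% interval -0.63 to 0.12, edgeR adjusted p = 0.277). In Ag+Costim against Naive it was -0.43 (95% interval -0.91 to 0.06, edgeR adjusted p = 0.161), and without Ag+Costim 4 it was -0.56 (edgeR adjusted p = 0.0487).

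Among the activating receptors, Klrk1, the NKG2D gene, changed mainly between Naive and the stimulated groups. It measured 71.9 and 78.1 CPM in Naive. The Ag libraries held 308, 259, 445, 448 and 489 CPM, and the Ag+Costim libraries 433, 467, 553, 713 and 476 CPM. The stimulated libraries were all above Naive, but overlapped each other. The log2 fold change was 2.38 ± 0.27 in Ag against Naive (edgeR adjusted p = 1.31e-05), or 5.19-fold. Between Ag+Costim and Ag it was 0.44 ± 0.18 and just missed the threshold (edgeR adjusted p = 0.0537), whereas DESeq2 called it (0.43, adjusted p = 0.0346). It was also called without Ag 4 (edgeR adjusted p = 0.048), without Ag 5 (0.0288) or without Ag+Costim 1 (0.0402), while without Ag+Costim 4 it was 0.33 (edgeR adjusted p = 0.118).

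Klrc2, the NKG2C gene, rose at each step as Klrc1 did, at a lower level. It measured 10.2 and 8.04 CPM in Naive. It measured 20.03, 17.5, 24.9, 33 and 26.5 CPM in Ag, and 66.1, 66.5, 63.9, 75.7 and 43.8 CPM in Ag+Costim. The 3 groups did not overlap. The log2 fold change was 1.41 ± 0.26 in Ag against Naive (edgeR adjusted p = 0.00052) and 1.38 ± 0.18 in Ag+Costim against Ag (edgeR adjusted p = 2.22e-05). Klrc1 and Klrc2 are close copies, and 15.9% of the 100-base windows of the main Klrc1 transcript, the length of a read, were also found in Klrc2 transcripts. For Klrc2, 12.8% of windows occurred in Klrc1 or Klrc3. Reads from those stretches could be assigned to either gene, so the smaller Klrc2 value carries this uncertainty. Klrg1, Klrk1, Klrd1 and Klre1 had 0 shared windows.

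Klrb1c, the NK1.1 gene, was the only one of the 7 that was called lower. Its level was 11.8 and 9.66 CPM in Naive and 7.31, 9.29, 11.8, 11.4 and 5.0 CPM in Ag. It was 0.640, 0.466, 0.879, 2.33 and 1.22 CPM in Ag+Costim, from 27, 21, 41, 100 and 47 counts. The highest Ag+Costim library was below the lowest Ag and Naive libraries. The log2 fold change was -3.02 ± 0.39 in Ag+Costim against Ag (edgeR adjusted p = 2.21e-05), an 8.09-fold lower level, and -3.28 ± 0.45 against Naive (edgeR adjusted p = 4.65e-05). Ag against Naive did not pass (-0.26 ± 0.46, edgeR adjusted p = 0.675). Between Ag and Ag+Costim, some markers of other cells moved with Klrb1c and others did not. The B cell and erythroid sums given above were lower in Ag+Costim than in Ag without overlap, while the myeloid sums overlapped. The B cell sums were also higher in Ag than in Naive (108 to 155 against 27.2 to 29.7 CPM), whereas Klrb1c was not called there. The summed NK markers given above overlapped between Ag and Ag+Costim. Cd244a, one of the 6, averaged 6.04 CPM in Ag and 8.84 CPM in Ag+Costim, and Itga2 averaged 5.46 and 3.83 CPM, both with overlapping ranges. Klra4 was called lower in Ag+Costim than in Ag (log2 fold change -3.30 ± 1.07, edgeR adjusted p = 0.0191) and so was Klra8 (-3.17 ± 1.01, edgeR adjusted p = 0.0175), both NK cell receptors with mean levels of 1.29 and 1.28 CPM in Ag. Those means were raised by Ag 4, at 3.76 CPM for Klra4 and 2.69 CPM for Klra8. The other Ag libraries had 0.443 to 0.878 and 0.625 to 1.39 CPM. Ncr1 averaged 1.9, 2.79 and 1.33 CPM in Naive, Ag and Ag+Costim, with overlapping ranges. Klra9 averaged 5.06, 0.724 and 0.168 CPM in these groups. It was called lower only in Ag+Costim against Naive (-4.92 ± 1.27, edgeR adjusted p = 0.00529). The 6 gamma delta or NKT cell markers (Trdc, Tcrg-C1, Tcrg-C2, Tcrg-C4, Zbtb16, Sox13) summed to 409 to 472 CPM in Naive, 177 to 239 CPM in Ag and 131 to 183 CPM in Ag+Costim, with Zbtb16 at 0 in Naive. Trdc made up most of these sums, with means of 360, 172 and 115 CPM in Naive, Ag and Ag+Costim. Tcrg-C4 averaged 34.9, 24.6 and 39.4 CPM, and Tcrg-C1 20.5, 0.717 and 0.353 CPM. Markers of other cells were present in the sorted samples, and the part of such cells in the fall of Klrb1c was not tested. Of the 100-base windows of Klrb1c, 12.6% were found in Gm44511 or Klrb1a, so some of its few reads may belong there.

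**Figure D2:**
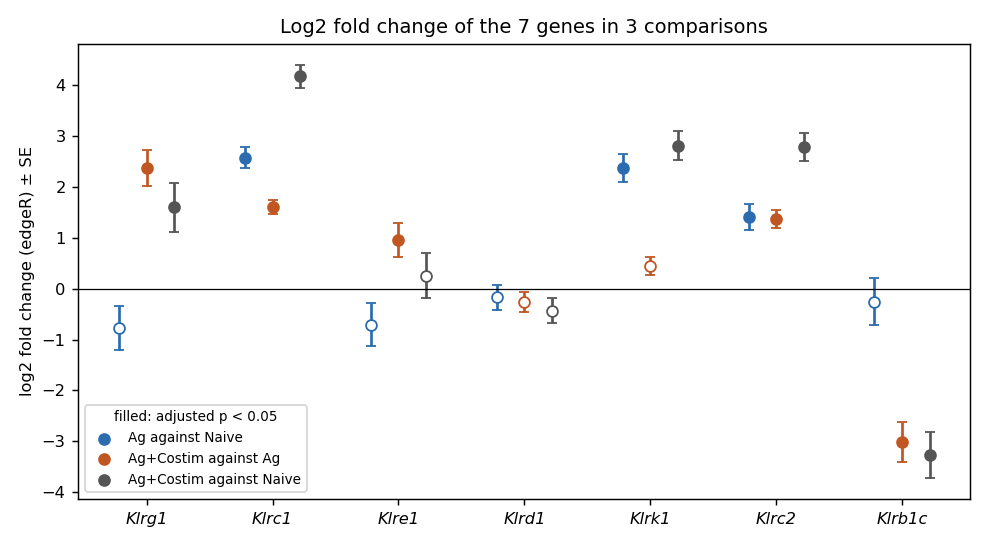
Log2 fold change ± SE (edgeR) of each receptor gene in Ag against Naive, Ag+Costim against Ag and Ag+Costim against Naive, filled where the adjusted p was below 0.05. Klrc1 and Klrc2 are filled and above 0 in all 3 comparisons, Klrd1 is open in all 3, and Klrb1c lies near 0 for antigen alone and at about -3 in both comparisons with Ag+Costim.

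Levels of different genes were compared per length, as FPKM summed over the transcripts of a gene. In Naive cells Klrd1 led with 258 ± 16.1 FPKM (SD, n = 2), followed by Klrk1 at 46.2 ± 1.81 and Klrc1 at 12.6 ± 2.25 FPKM. The remaining 4 genes lay between 3.80 (Klrg1) and 8.12 FPKM (Klre1), and only Klrc2 and Klrg1, the lowest pair, overlapped. In Ag cells Klrk1 came first with 249 ± 63.4 FPKM (SD, n = 5), and although its range overlapped that of Klrd1 at 192 ± 54.1 FPKM, it was the higher of the pair in each of the 5 libraries, by 1.05 to 1.71 times. Klrc1 had 66.8 ± 12.2 and Klrc2 12.3 ± 3.39 FPKM. The lowest 4 (Klrc2, Klre1, Klrb1c, Klrg1) each overlapped the next in the order. In Ag+Costim cells Klrk1 had 314 ± 62.9 FPKM and was above all others in every library. Klrc1 with 199 ± 18.3 and Klrd1 with 164 ± 39.9 FPKM overlapped. Klrc2 followed with 31.7 ± 6.53, Klrg1 with 9.98 ± 2.41 and Klre1 with 8.71 ± 2.0 FPKM, the last 2 overlapping, and Klrb1c was lowest with 0.418 ± 0.274 FPKM.

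The summed FPKM of the 7 genes was 340 ± 15.6 in Naive (SD, n = 2), 531 ± 126 in Ag (SD, n = 5) and 727 ± 120 in Ag+Costim (SD, n = 5). Klrd1 made up 76.0% of that sum in Naive, 36.1% in Ag and 22.3% in Ag+Costim. Klrc1 made up 3.71%, 12.8% and 27.7%, and Klrk1 13.6%, 46.8% and 43.0%. The FPKM ratio of Klrc1 to its partner Klrd1 was 0.0447 and 0.0528 in the 2 Naive libraries, 0.274 to 0.441 in Ag and 0.964 to 1.54 in Ag+Costim. Of the 3 groups, only Ag+Costim had libraries in which this ratio exceeded 1. The FPKM ratio of Klrc1 to the activating Klrc2 was 2.6 to 2.89 in Naive, 4.40 to 6.27 in Ag and 5.83 to 8.37 in Ag+Costim, so Klrc1 was the higher of the pair in all 12 libraries. These ratios were chosen after the values had been seen and were not tested.

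**Figure D3:**
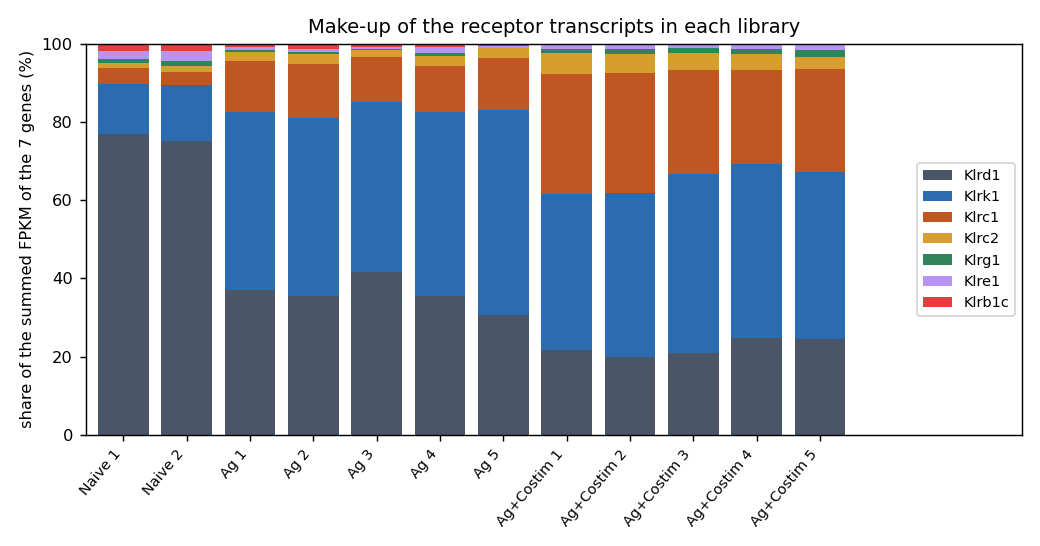
Share (%) of the summed FPKM of the 7 receptor genes held by each gene, one stacked bar per library. Klrd1 takes 75.1% to 76.9% in Naive, 30.6% to 41.7% in Ag and 19.9% to 24.8% in Ag+Costim, while Klrc1 takes 3.36% to 4.06%, 11.4% to 13.8% and 23.9% to 30.8%.

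The transcripts of Klrk1 differ in their first exon. Klrk1-201 (232 codons) starts translation in an exon of its own at chr6:129622537-129622772. Klrk1-202 (219 codons) and Klrk1-205 (225 codons) start in the exon after it. Long and short forms of NKG2D are known in mice, the short form being able to use DAP12 in addition to DAP10. Klrk1-202 held 0 counts in both Naive libraries, 10.8% to 27.6% of the gene's transcript counts in Ag and 16.3% to 20.7% in Ag+Costim. That 0 does not mean the later start codon was absent in Naive. Klrk1-205 has the same start codon and held 41.4% to 43.4% there. Klrk1-201 held 29.5% to 31.6% in Naive, 18.3% to 39.1% in Ag and 27.5% to 32.1% in Ag+Costim. The shares of Klrk1-202 and Klrk1-201 overlapped between Ag and Ag+Costim (exact permutation adjusted p = 0.889 for each, two-sided). The authors' Psi, the fraction of reads at a piece that include it, gave another picture. For the first exon of Klrk1-201 it was 0.949 in Ag and 0.889 in Ag+Costim, well above that transcript's share. Shares of counts and Psi are not on 1 scale, since longer transcripts hold more counts. The division of Klrk1 between its starts is therefore uncertain.

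Of 14 transcript shares tested in 4 members (Klrk1, Klrd1, Klrc2, Klre1), 3 differed between Ag+Costim and Ag, all in Klrk1. The share assigned to Klrk1-205 rose from 31.0% ± 1.9 (SD, n = 5) to 37.5% ± 1.51 (SD, n = 5) of the gene's counts. The retained-intron transcripts fell, Klrk1-204 from 8.41% ± 1.53 to 5.70% ± 0.296 and Klrk1-206 from 9.30% ± 1.25 to 6.69% ± 0.268. In each the 5 Ag and 5 Ag+Costim libraries did not overlap (exact permutation p = 0.00794, the smallest that 5 against 5 can give, adjusted p = 0.037 over the 14 shares). Shares of 1 gene are not independent, since they sum to 1 whole. In Naive, Klrk1-205 held 41.4% to 43.4% and Klrk1-206 13.3% to 13.6%. Of the annotated Klrk1 transcripts, only Klrk1-205 includes the piece at chr6:129616333-129616350. The Psi of that piece was 0.054 in Ag and 0.043 in Ag+Costim, far below the shares of Klrk1-205 and not higher in Ag+Costim. Counts and Psi thus disagree on Klrk1-205, and its rise is uncertain.

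**Figure D4:**
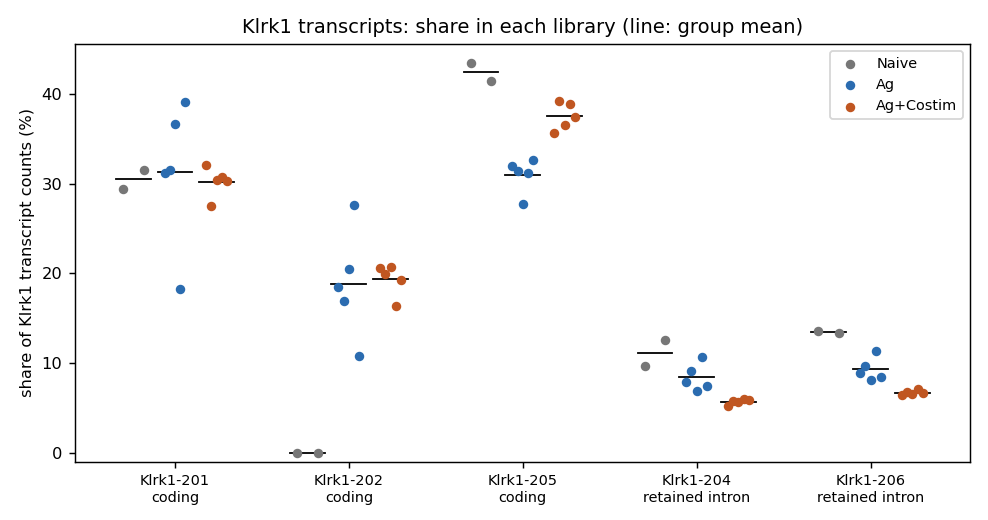
Share (%) of Klrk1 transcript counts held by each of the 5 transcripts above the 5% minimum in every library, with a line at each group mean. Klrk1-202 is at 0 in both Naive libraries, and Klrk1-205 is higher and the retained-intron transcripts Klrk1-204 and Klrk1-206 are lower in Ag+Costim than in Ag.

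In Klrd1 the coding transcript Klrd1-202 held 91.1% to 94.1% of counts in Ag and 82.0% to 94.1% in Ag+Costim, and Klrd1-205, annotated as a target of nonsense-mediated decay, 2.34% to 3.10% and 0.762% to 14.2% (exact permutation adjusted p = 0.286 for both, two-sided). The wide Ag+Costim spread of Klrd1-205 came from counts of 41, 194, 846, 1145 and 682. Shares of Klrc2-202 ranged from 0% to 30.0% within Ag, and those of Klre1-202 from 8.33% to 36.6%, so single libraries assigned these reads very differently. Klrg1 has 1 annotated transcript, Klrc1-201 was assigned 98.2% of the Klrc1 counts (the Psi values below differ), and Klrb1c had fewer than 50 counts in some Ag+Costim libraries, so none of the 3 was tested.

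Inclusion of exon pieces was given by the authors as 1 Psi value per group, the fraction of reads at a piece that include it, which has no replicate check and no test here. Psi values were present for 60 pieces of the 7 genes, and 5 differed by 0.1 or more, a share near the 7.45% of all 115403 pieces in the table that did. At the start of Klrc1 exon 1, outside the coding part, the piece at chr6:129678929-129678973 had a Psi of 0.406 in Ag and 0.148 in Ag+Costim, and the next at chr6:129678911-129678928 had 0.592 and 0.837. In Klrc2 the start piece at chr6:129660388-129660556, in coding exon 1, had 0.393 and 0.216. Exon 6 of Klre1 (chr6:129584146-129584246, coding) had 0.563 and 0.426. Exon 3 of Klrg1 (chr6:122278115-122278284, coding) had 0.856 and 0.970. The Klrc1 exons that one or other of its shorter transcripts lacks, exon 2 (0.754 and 0.687) and exon 3 (0.792 and 0.720), differed by less than 0.1. These values disagree with the transcript counts. There Klrc1-204, without exon 2, held 0.977% of the Klrc1 counts and Klrc1-203, without exon 3, held 0.776%. How much Klrc1 RNA lacks these exons is therefore uncertain.

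Among the adaptors, Hcst, the DAP10 gene that serves Klrk1, fell in Ag+Costim. Hcst measured 212 and 194 CPM in Naive, 174, 168, 230, 203 and 224 CPM in Ag, and 56.2, 37.8, 55.2, 106 and 67.6 CPM in Ag+Costim. All Ag+Costim libraries were below all others, with a log2 fold change of -1.63 ± 0.22 against Ag (edgeR adjusted p = 2.68e-05). The FPKM ratio of Klrk1 to Hcst was 0.0847 and 0.0967 in Naive, 0.434 to 0.626 in Ag and 1.80 to 3.39 in Ag+Costim. Tyrobp, the DAP12 gene, averaged 7.55, 16.9 and 7.85 CPM in Naive, Ag and Ag+Costim, higher in Ag than Naive (1.16 ± 0.44, edgeR adjusted p = 0.0447) and lower in Ag+Costim than Ag (-1.11 ± 0.32, edgeR adjusted p = 0.00953). Tyrobp is abundant in myeloid cells, whose marker sums given above were lowest in Naive and overlapped between Ag and Ag+Costim. The part of myeloid cells in the Tyrobp values was not tested.

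Of the 13 adaptor and signalling genes listed, all tested, 4 were called higher and 4 lower in Ag against Naive, near the 24.2% and 22.5% of all genes. With costimulation, against Ag, 6 were called higher and 4 lower, beside 26.6% and 26.5% of all genes. Inhibitory receptors of this family recruit phosphatases. Inppl1 (SHIP-2) rose by 3.68 ± 0.36 on the log2 scale from a mean of 0.541 to 6.90 CPM (edgeR adjusted p = 1.68e-06) and Inpp5d (SHIP-1) by 1.31 ± 0.11 (edgeR adjusted p = 4.92e-07). Ptpn11 (SHP-2) fell (-0.75 ± 0.11, edgeR adjusted p = 4.63e-05), and Ptpn6 (SHP-1) had 0.17 ± 0.09 (edgeR adjusted p = 0.107). Mean levels in Naive, Ag and Ag+Costim were 103, 58.5 and 145 CPM for Inpp5d and 34.0, 95.9 and 57.2 CPM for Ptpn11. Ptpn11 was thus still above Naive in Ag+Costim (0.75 ± 0.14, edgeR adjusted p = 0.000718). Of the kinases used by activating receptors, Zap70 rose (0.85 ± 0.07, edgeR adjusted p = 4.33e-07) and Syk rose (1.23 ± 0.36, edgeR adjusted p = 0.0116). Zap70 averaged 242, 150 and 270 CPM in Naive, Ag and Ag+Costim, and Syk 1.02, 2.58 and 6.02 CPM. In Ag+Costim against Naive, Zap70 was not called (0.16 ± 0.09, edgeR adjusted p = 0.164).

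**Figure D5:**
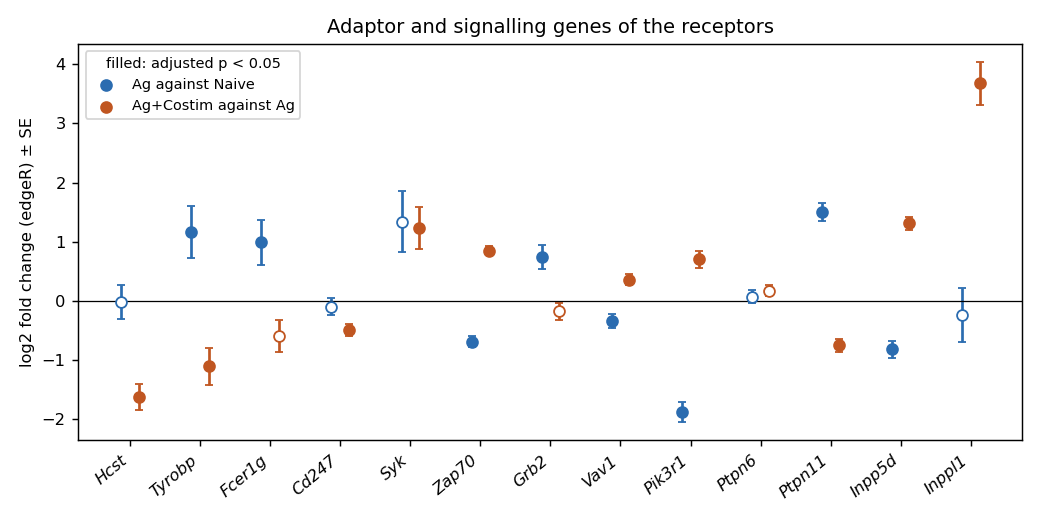
Log2 fold change ± SE (edgeR) of 13 adaptor and signalling genes in Ag against Naive and in Ag+Costim against Ag, filled where the adjusted p was below 0.05. Hcst, at -0.02 and -1.63, is filled only for Ag+Costim against Ag, and Inppl1 has the highest value, 3.68, in that comparison.

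Of 15 ligand genes listed, 11 were in the count table and 6 were tested. The calls in Ag+Costim against Ag were 3 higher and 1 lower, and those in Ag against Naive 1 higher and 4 lower, counts too small to set against the all-gene shares. H2-T23, the gene of the Qa-1 ligand of both Klrc1 and Klrc2, averaged 516, 625 and 357 CPM in Naive, Ag and Ag+Costim, and fell by 0.81 ± 0.11 on the log2 scale in Ag+Costim against Ag (edgeR adjusted p = 3.14e-05). Ulbp1, the gene of an NKG2D ligand, averaged 2.47, 6.86 and 12.7 CPM and was called higher at both steps (1.48 ± 0.35, edgeR adjusted p = 0.00373, then 0.89 ± 0.24, edgeR adjusted p = 0.007). Cdh1, the gene of the Klrg1 ligand E-cadherin, was at 0 in all 5 Ag libraries and at most 1.56 CPM elsewhere.

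The 23 other genes whose symbol starts with Klr were low, and 17 passed the filter. In Ag+Costim against Ag, 5 of the 17 were called lower (Klra1, Klra14-ps, Klra4, Klra8, Klrb1a), near the 26.5% of all genes. Of the 17, 0 were called higher there, beside 26.6% of all genes. The 5 averaged at most 1.41 CPM in Ag. In Ag against Naive 2 of the 17 were called higher (Klra2 and Klrb1f), beside 24.2% of all genes, and 0 lower, beside 22.5%. Ly49 genes of this kind are close copies of each other, so the division of reads among them is uncertain. Klrc3, the neighbour of Klrc1 and Klrc2, averaged 0.560, 0.451 and 0.872 CPM in Naive, Ag and Ag+Costim and was not called in Ag+Costim against Ag (0.96 ± 0.39, edgeR adjusted p = 0.0522).

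Genes used to tell effector from memory CD8+ T cells were read beside Klrg1. Of the 13 listed, 7 were called higher in Ag+Costim than in Ag and 4 lower, beside 26.6% and 26.5% of all genes, the latter near the share of the list. Those called higher were Tbx21, Prdm1, Id2, Eomes, Cx3cr1, Bcl6 and Il2rb, and those called lower were Il7r, Tcf7, Id3 and Cd27. Tbx21, the gene of the effector transcription factor T-bet, averaged 38.2, 109 and 443 CPM in Naive, Ag and Ag+Costim. Il7r, whose protein marks memory precursors, averaged 567, 106 and 72.8 CPM. Zeb2, another factor of Klrg1-bearing effector cells, averaged 4.87, 2.41 and 3.90 CPM and was not called in Ag+Costim against Ag (edgeR adjusted p = 0.114).

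The genes whose log2 CPM was most like that of a member over the 12 libraries, among 11735 genes above a mean log2 CPM of 1, are given as a description, since the points share groups and libraries. For Klrc1 they were Plek, Irf8 and Ezh2 (Pearson r of 0.987, 0.986 and 0.986). For Klrc2 they were Cpped1, Gpi1 and Tbx21 (0.975, 0.962 and 0.962). For Klrk1 they were Slamf7, Pld4 and Gem (0.982, 0.972 and 0.971). For Klrg1 they were Sfn, 1700017B05Rik and Ccr2 (0.973, 0.972 and 0.964), and for Klre1 Tram2, Timmdc1 and Tra2a (0.952, 0.932 and 0.927). For Klrb1c they were Gm43647, Trdv2-2 and Pcgf1 (0.983, 0.982 and 0.982). Klrd1 had the loosest matches, Art2b, AC154343.2 and Gm44745 (0.832, 0.831 and 0.807).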

How the data were processed

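Poly(A) RNA of 12 OT-I CD8+ T cell samples was made into libraries with the SMART-Seq v4 and Nextera XT kits and read as single reads of 100 bases, per the labels. Per the labels and the study's methods, the authors used HISAT2 2.1.0, SAMtools 1.9 and StringTie 2.1.0 on mm10, and R 4.0.5 with DESeq2 1.30.1 for their own comparison. The count values were deposited by the authors per gene and per transcript, not normalized, and per-transcript FPKM came from the authors' StringTie output. How StringTie divides reads among transcripts and near-identical genes affects both. The Psi values are fractions that the authors derived with Whippet, 1 per group. The columns that hold the authors' own comparison, a Psi difference and its probability, were not used.

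Groups came from the sample titles. Of 81881 loci in the gene table, 55536 matched GENCODE vM21. The rest, unannotated loci with a bare number, held 0.0508% to 0.121% of counts and were left out. Counts of all 12 libraries were fitted with edgeR 4.0.16 in R 4.3.3 (TMM scaling, filterByExpr, 1 term per group, robust quasi-likelihood test, two-sided, Benjamini-Hochberg over 18817 genes). CPM values use the TMM library sizes. The SE is the log2 fold change divided by the square root of the F statistic, and 95% intervals use 1.96 SE. Alternatives were DESeq2 1.42.0, limma 3.58.1 on log2(FPKM + 1) and log2(FPKM + 0.1) with a minimum mean FPKM of 0.5 or none, other scalings and filters, 2 groups only, a replicate block, and leaving out each library. Transcript shares were tested with an exact permutation test (SciPy), for members with at least 50 transcript counts in each library and for transcripts with at least 5% of a gene's counts. Fits and share tests were also run on simulated data. No pair of replicate libraries held identical values, and floors cover counting error only.

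All 7 members are named, and other genes were named from fixed lists where they passed the test and led by size, or where a result turned on them. The 3 most similar genes per member were taken by Pearson r. The members and lists were chosen with earlier results of these data known.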

Additional observations from a re-analysis of the deposited data

Results flagged for a closer look

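In 42 groups of 5 libraries examined (the CPM of each member and each tested transcript share, in Ag and in Ag+Costim), 2 had a library whose distance to the nearest other exceeded 0.71 of the group's range. Chance alone gives this in about 1 of 20 such groups. Klre1 in Ag 4 was at 12.9 CPM, against 3.49 to 4.34 CPM in the other Ag libraries. Ag 4 was also the shallowest library and held the highest NK, myeloid and erythroid marker sums, and the part of such cells was not tested. Klrd1 in Ag+Costim 4 was at 196 CPM, against 118 to 137 CPM in the other Ag+Costim libraries.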

How the results depend on the processing

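No member changed direction under any alternative run. Whether same-numbered Ag and Ag+Costim libraries form pairs was not settled. Deviations of same-numbered libraries correlated at 0.02 to 0.10, and 3 of 5 libraries matched best with their own number. With the replicate block, 2 members were called lower in Ag against Naive (Klrg1 -1.12 and Klre1 -1.08) and 2 in Ag+Costim against Naive, where the count also reached 2 with limma on log2(FPKM + 1) and on log2(FPKM + 0.1), in each case by adding Klrd1. The block also called Klrk1 higher in Ag+Costim against Ag (0.46, edgeR adjusted p = 0.0124), for 5 members called higher, and gave Klre1 1.13 there (edgeR adjusted p = 0.00165). With the replicate block 0 transcript shares were called, since 5 pairs cannot give a p below 0.0625. Leaving out 1 library gave 0 to 2 members called lower in Ag against Naive (2 without Ag 4), 1 to 2 in Ag+Costim against Naive (2 without Ag+Costim 4), 3 to 5 called higher in Ag+Costim against Ag, 3 to 4 in Ag+Costim against Naive, and 0 transcript shares each time, since 4 against 5 cannot give a p below 0.0159 and 14 were adjusted together. Upper-quartile scaling moved the all-gene median in Ag+Costim against Ag to -0.24 on the log2 scale, against which its Klre1 value of 0.75 is to be read. Depth limits Klrb1c in Ag+Costim, with 21 to 100 counts per library.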
